A study of Mus musculus with 10 samples.

Results

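Complex I, or NADH:ubiquinone oxidoreductase, is described here through the 45 nuclear genes of mouse skin that carry an Nduf subunit or assembly factor name. The members were every gene whose symbol is Ndufa, Ndufab, Ndufb, Ndufc, Ndufs, Ndufv or Ndufaf followed by a number, with counts summing to 10 or more over the 10 libraries. They were 45 of the 47729 genes of the count table, 37 with a subunit name and 8 named as assembly factors (Ndufaf1 to Ndufaf8), and all 45 passed the filter on low counts that left 17668 genes for testing. The measured values choose no member, apart from that minimum, but the genes were taken up with earlier results of these libraries known.

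The study sequenced RNA from the skin of male C57BL/6 mice, with 5 libraries labelled 9 months and 5 labelled 24 months. The design text of the series has 2 months for the younger group instead, and nothing else used here settles which is right, so the group is called by its sample label. No mutation, transgene or treatment is named for either group, and the labels do not say in words that each library came from a separate mouse. If libraries share animals, the p-values below measure the spread between libraries only. Replicates are numbered 1 to 5 in each group in accession order, so a number names a library and pairs nothing across groups.

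Complex I takes electrons from NADH, passes them along iron-sulfur clusters to ubiquinone, and pumps protons across the inner mitochondrial membrane. Its core subunits do the chemistry and are made from both the nuclear and the mitochondrial genome, its supernumerary subunits surround and stabilise the core, and assembly factors join the modules and leave before the enzyme is complete. In skin it is found in keratinocytes, fibroblasts, fat cells and, at high content, the thin muscle sheet below the dermis. In bulk tissue, fewer cells of a type and less RNA per cell cannot be told apart.

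Depth was 29324259 to 55976007 counts per library, and the members took 0.274 to 0.462% of the counts in 9 libraries and 0.699% in 9 months replicate 1. A member had between 173 and 13900 counts in a library. Counting error was small beside the spread between libraries for members with many counts, but not for every member. For Ndufaf2, with as few as 276 counts in a library, it was not small beside the spread among 9 months replicates 2 to 5. Values are CPM, counts per 1000000 of the library total after TMM scaling. Keratinocyte markers summed to 11300 to 22500 CPM in every library, so the defining markers of skin were present, and skeletal muscle markers to 23400 to 66700 CPM. Markers of growing hair summed to 9410 and 29200 CPM in 9 months replicates 4 and 5 and to 34.8 to 334 CPM in the other 8 libraries. In 24 months replicates 1 and 2 the fibroblast markers summed to 1810 and 1220 CPM, against 4780 to 11700 CPM elsewhere. No pair of libraries came close to being the same library, the smallest chi-square per gene between any pair being 32.2.

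The promoters of 5 members are shown as examples, picked because they hold matches to motifs of regulators of nuclear mitochondrial genes. Some other member promoters hold no such match, and any link of the motifs to the members' levels was not tested. The promoters run from 250 bases before to 50 after the RefSeq start (GRCm38.p6), 5′ to 3′ on the gene's strand. Capitals mark matches on either strand to NRF1 (GCGCANGCG), the ETS family that includes GABP (CCGGAAG) or YY1 (AANATGGCG).
Ndufa11, chr17:56717512-56717811, + strand: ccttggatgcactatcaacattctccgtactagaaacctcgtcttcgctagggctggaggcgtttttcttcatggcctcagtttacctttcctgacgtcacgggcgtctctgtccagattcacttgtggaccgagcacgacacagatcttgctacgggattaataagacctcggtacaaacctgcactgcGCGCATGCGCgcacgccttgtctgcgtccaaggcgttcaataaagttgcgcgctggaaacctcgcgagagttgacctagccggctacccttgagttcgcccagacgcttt
Ndufs6, chr13:73328433-73328732, - strand: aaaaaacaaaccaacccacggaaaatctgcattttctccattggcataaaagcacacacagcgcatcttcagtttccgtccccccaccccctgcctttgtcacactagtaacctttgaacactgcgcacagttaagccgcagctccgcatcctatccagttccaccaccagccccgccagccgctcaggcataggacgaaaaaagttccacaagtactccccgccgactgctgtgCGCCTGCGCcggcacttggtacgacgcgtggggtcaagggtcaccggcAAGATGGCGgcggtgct
Ndufs3, chr2:90904672-90904971, - strand: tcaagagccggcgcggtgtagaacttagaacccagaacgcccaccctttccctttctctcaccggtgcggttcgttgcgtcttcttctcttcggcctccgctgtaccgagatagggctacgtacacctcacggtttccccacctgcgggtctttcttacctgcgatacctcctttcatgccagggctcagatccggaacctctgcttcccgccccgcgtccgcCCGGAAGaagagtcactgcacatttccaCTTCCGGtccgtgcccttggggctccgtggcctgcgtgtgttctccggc
Ndufb4, chr16:37654319-37654618, - strand: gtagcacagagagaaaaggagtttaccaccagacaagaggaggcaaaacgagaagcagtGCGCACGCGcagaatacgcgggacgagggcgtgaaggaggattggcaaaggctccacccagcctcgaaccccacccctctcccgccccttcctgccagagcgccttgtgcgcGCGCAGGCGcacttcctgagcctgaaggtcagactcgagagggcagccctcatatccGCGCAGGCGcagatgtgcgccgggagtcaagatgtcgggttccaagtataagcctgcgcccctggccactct
Ndufaf8, chr11:120098684-120098983, + strand: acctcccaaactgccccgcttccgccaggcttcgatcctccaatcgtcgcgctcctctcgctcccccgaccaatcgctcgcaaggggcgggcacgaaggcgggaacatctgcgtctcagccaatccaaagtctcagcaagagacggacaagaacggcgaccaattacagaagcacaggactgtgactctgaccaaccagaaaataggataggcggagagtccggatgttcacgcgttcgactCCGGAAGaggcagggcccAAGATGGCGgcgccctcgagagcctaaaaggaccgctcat
Ndufa11 has an overlapping pair of NRF1 matches, since that motif reads nearly alike on both strands. Ndufs6 has an NRF1 and a YY1 match, Ndufs3 has matches to the ETS motif on both strands, Ndufb4 has 3 NRF1 matches, and Ndufaf8 has an ETS and a YY1 match.

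RefSeq promoters were matched for 40 of the 45 member genes. The NRF1 motif was in a promoter of 10 of these 40 genes (25.0%), against 7.03% of all 27025 genes with a promoter of the same length. The YY1 motif was in 8 of 40 (20.0%) against 2.76%, and the ETS motif in 6 of 40 (15%) against 9.93%. The motif of the estrogen-related receptors, TCAAGGTCA, was in 0 of 40 against 0.466%. The member genes thus held NRF1 and YY1 letters more often than promoters at large, which describes the sequence and does not show binding.

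Across the libraries the 37 subunit genes moved as a block. Their mean log2 CPM was 7.30, 6.13, 6.32, 6.5 and 5.78 in 9 months replicates 1 to 5 and 6.55, 5.95, 6.21, 6.13 and 6.14 in 24 months replicates 1 to 5. The 9 months group therefore held both the highest library (replicate 1) and the lowest (replicate 5), and the 24 months libraries all lay between. The 8 assembly factor genes followed at a lower level, with 4.69, 3.86, 3.94, 4.14 and 3.72 at 9 months and 4.10, 3.66, 3.86, 3.88 and 3.90 at 24 months. Their lowest library was 24 months replicate 2, not 9 months replicate 5.

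**Figure D1:**
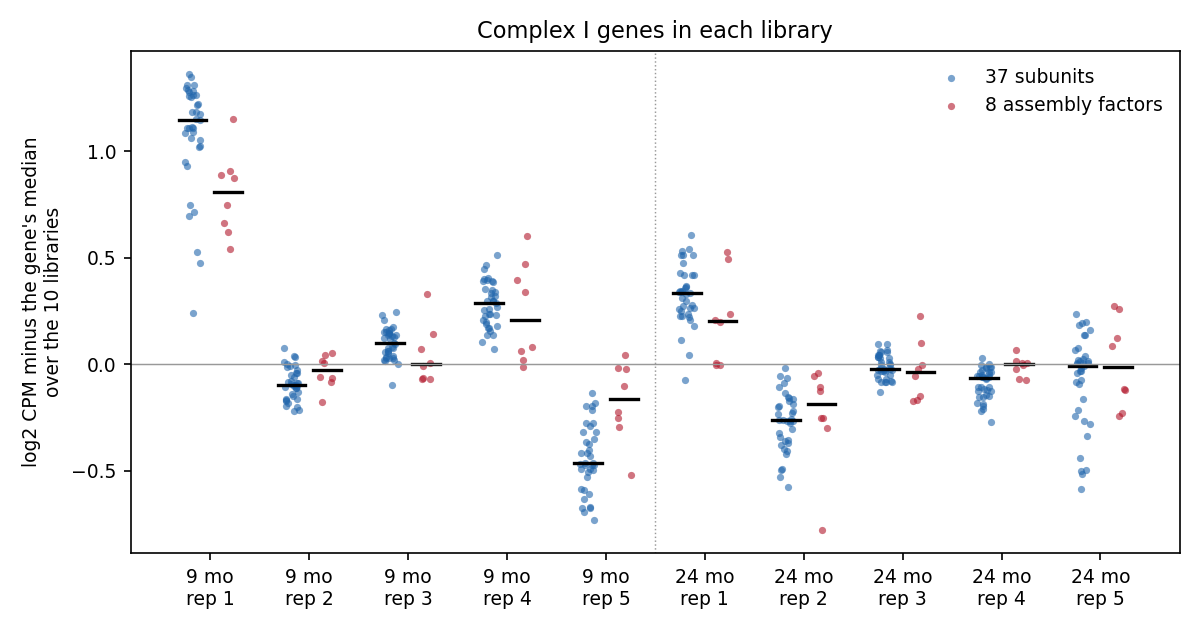
Each point is a gene, blue for the 37 subunits and red for the 8 assembly factors; the y axis is log2 CPM minus the gene's median over the 10 libraries, black bars are medians over genes, and points are spread sideways for sight only. 9 months replicate 1 stands above the other 9 libraries, and 9 months replicate 5 is lowest for 26 of the 45 genes.

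9 months replicate 1 was the highest of the 10 libraries for 43 of the 45 members, 35 subunits and all 8 assembly factors. Over all genes tested it was highest for 22.9%. The 2 exceptions were Ndufs1, highest in 9 months replicate 4, and Ndufa10, highest in 24 months replicate 1. 9 months replicate 5 was lowest for 26 members (24 subunits and 2 assembly factors), and over all genes it was lowest for 19.6%. 24 months replicate 2 was lowest for 12 members, replicate 5 for 6 and replicate 3 for 1. With 9 months replicate 1 left out, 24 months replicate 1 was highest for 25 members, 9 months replicate 4 for 18 and 24 months replicate 5 for 2.

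The levels in 9 months replicate 1 were 1.13 to 2.65 times the mean of the other 4 libraries of its group over the subunits (median 2.27), and 1.38 to 2.28 times over the assembly factors (median 1.72). The spread over libraries was smaller without that library: the coefficient of variation of a subunit gene had a median of 37.2% over 10 libraries and 18.9% over the other 9. For the assembly factors it was 25.8% and 15.5%.

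Against 24 months, every subunit had a log2 fold change below 0 (24 over 9 months) in the edgeR quasi-likelihood fit, with a median of -0.30 and a range of -0.48 to -0.06. Over all 17668 genes the median was -0.01 and 51.6% were below 0. None of the 37 passed an adjusted p of 0.05, as none of the 17668 genes did (0%), and the smallest adjusted p among them was 0.480 in edgeR (Ndufa11). None had an unadjusted p under 0.05 either, against 13.1% of all genes. The 8 assembly factors also lay below 0, with a median of -0.23, a range of -0.38 to -0.07 and a smallest adjusted p of 0.568 in edgeR. The shared sign is therefore not a called change in any member, and all 37 and 8 signs come from the same 10 libraries.

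Without 9 months replicate 1 the shared sign was gone. The subunits' median log2 fold change became 0.01 (range -0.16 to 0.25), with 19 above 0 and 18 below. The assembly factors' median became 0.00 (-0.18 to 0.09), with 3 above 0 and 5 below. Over all genes the median without that library was 0.00, with 49.2% below 0. No member and no gene passed an adjusted p of 0.05 in edgeR (0% of 17921 genes), and no member had an unadjusted p under 0.05, against 15.6% of all genes. The SE of a member's log2 fold change had a median of 0.26 with all libraries and 0.18 without that library.

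**Figure D2:**
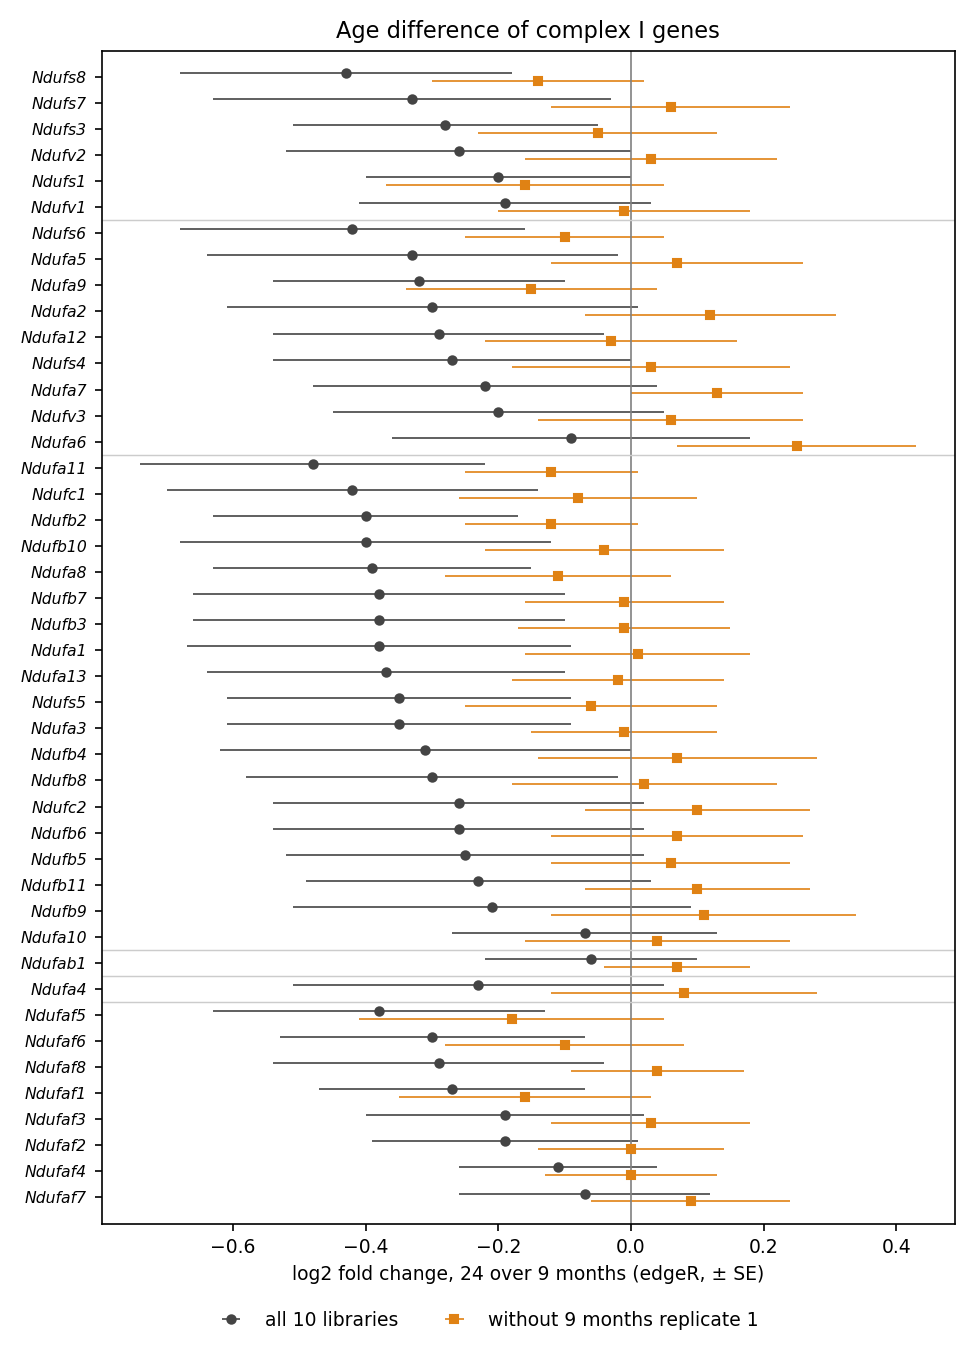
Points are log2 fold changes (24 over 9 months, edgeR) with their SE for 44 members, circles from all 10 libraries and squares without 9 months replicate 1; lines part core matrix-arm, supernumerary matrix-arm and supernumerary membrane-arm subunits, Ndufab1, Ndufa4 and the assembly factors. All 44 circles lie below 0, and the squares lie between -0.18 and 0.25.

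The CPM of the groups overlapped for all 45 members with and without that library, so 0 of 45 were separated. Over all genes 2.89% were separated with all libraries and 5.43% without 9 months replicate 1. DESeq2, which called 4.35% of the genes it gave an adjusted p, called 0 of the 45 members.

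The 7 core subunits of the matrix arm hold the flavin and the iron-sulfur clusters. Their median log2 fold change was -0.26, and -0.05 without 9 months replicate 1. Ndufv1 carries the flavin that takes electrons from NADH and had 327.9, 174, 204, 241 and 151 CPM at 9 months and 246, 182, 204, 196 and 133 CPM at 24 months. Its highest library was 9 months replicate 1 and its lowest 24 months replicate 5, and the groups overlapped (log2 fold change -0.19 ± 0.22 SE, edgeR adjusted p = 0.773). Ndufv2, which holds an iron-sulfur cluster beside it, had 326.4, 138, 169, 197 and 114 CPM at 9 months and 207, 121, 160, 138 and 161 CPM at 24 months. Leaving out 9 months replicate 1 took its log2 fold change from -0.26 to 0.03.

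Ndufs1 is the largest core subunit and carries further clusters of the chain, and it was the member least raised in 9 months replicate 1. It had 207, 166, 183, 250 and 130 CPM at 9 months and 205, 133, 187, 168 and 124 CPM at 24 months. Replicate 4 was highest and replicate 1 stood only 1.13 times above the mean of the other 4, so the log2 fold change barely moved, from -0.20 ± 0.20 to -0.16 ± 0.21. Ndufs3, in the module that holds the ubiquinone site, had 114, 59.4, 67.6, 76.2 and 43.4 CPM at 9 months and 75.5, 55.6, 60.2, 58.2 and 47.4 CPM at 24 months. Its highest library was 9 months replicate 1 and its lowest 9 months replicate 5, and its log2 fold change went from -0.28 to -0.05.

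Ndufs7 holds the terminal cluster that passes electrons to ubiquinone, and it was the core subunit most raised in 9 months replicate 1. It had 248, 94.0, 109, 122 and 65.5 CPM at 9 months and 127, 95.6, 97.9, 102 and 86.2 CPM at 24 months. Replicate 1 was 2.55 times the mean of the others in its group, and the log2 fold change was -0.33 with it and 0.06 without it. Ndufs8, which carries clusters upstream of Ndufs7, had 150, 63.3, 70.9, 88.1 and 58.7 CPM and 81.8, 48.2, 65.8, 63.0 and 60.9 CPM. It was the core subunit furthest below 0 (-0.43 ± 0.25, edgeR adjusted p = 0.507) and stayed below 0 without replicate 1 (-0.14 ± 0.16, edgeR adjusted p = 0.749).

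The 9 supernumerary subunits of the matrix arm stood at a median of -0.29 (log2 fold change), and at 0.06 without 9 months replicate 1. Ndufs6, a zinc-binding subunit needed late in assembly of that arm, had 117, 45.7, 56.5, 63.1 and 41.9 CPM at 9 months and 60.3, 39.6, 46.8, 47.1 and 48.1 CPM at 24 months. Its log2 fold change was -0.42 ± 0.26 (edgeR adjusted p = 0.531), and -0.10 without the high library. Ndufa6 belongs to the LYR-motif proteins and binds the acyl carrier Ndufab1. It had 243, 102, 116, 129 and 71.6 CPM at 9 months and 153, 110, 112, 113 and 135 CPM at 24 months. It had the highest value of all members without replicate 1, 0.25 ± 0.18 (edgeR adjusted p = 0.542), against -0.09 ± 0.27 with it. Ndufv3, a small subunit of the NADH-binding module, went from -0.20 to 0.06.

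The 19 supernumerary subunits of the membrane arm, which encase the proton-pumping part, had a median of -0.35, and of -0.01 without 9 months replicate 1. Ndufa11 (ENSMUSG00000002379, chr17:56717767-56722141 on GRCm38) sits where complex I meets complex III in respiratory supercomplexes. It had 169, 69.9, 76.1, 79.9 and 54.7 CPM at 9 months and 73.8, 56.9, 64.9, 66.5 and 60.9 CPM at 24 months. Its log2 fold change of -0.48 ± 0.26 was the lowest of the 45, with an approximate 95% interval of -0.99 to 0.04, and its unadjusted p of 0.0935 in edgeR was the smallest. Without replicate 1 it was -0.12 ± 0.13, with an interval of -0.37 to 0.13.

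Ndufc1, a small membrane-arm subunit, had 116, 44.2, 54.2, 64.2 and 37 CPM at 9 months and 52.9, 34.4, 51.3, 46.2 and 51.4 CPM at 24 months, with a log2 fold change of -0.42 that became -0.08. Ndufb2, at the far end of the membrane arm, had 47.8, 23.3, 24.8, 24.9 and 19.3 CPM and 21.0, 18.4, 20.9, 20.3 and 25.3 CPM, going from -0.40 to -0.12. In both genes 9 months replicate 1 was far above the other 9 libraries, which overlapped between the ages. Ndufb9, an LYR-motif subunit, had 490, 205, 237, 283 and 139 CPM and 337, 184, 221, 203 and 222 CPM, and went from -0.21 to 0.11. Ndufa10, related to nucleoside kinases, had 210, 137, 157, 188 and 113 CPM and 210, 142, 157, 145 and 111 CPM, so its highest libraries, 1 of each age, were level and its log2 fold change was -0.07, or 0.04 without replicate 1.

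Ndufab1 is the mitochondrial acyl carrier protein, present in both arms and also used in lipoic acid synthesis. It varied little, with 31.9, 20.6, 20.7, 24.7 and 19.3 CPM at 9 months and 25.1, 19.9, 22.7, 22.1 and 22.2 CPM at 24 months, and its log2 fold change of -0.06 was the nearest to 0. Ndufa4 was first isolated with complex I and is now placed in complex IV. It had 473, 198, 240, 265 and 146 CPM at 9 months and 291, 177, 214, 196 and 249 CPM at 24 months, and went from -0.23 to 0.08. Both genes had 9 months replicate 1 highest and replicate 5 lowest.

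Of the 8 assembly factors, Ndufaf1 works in the complex that builds the membrane arm. It had 31.3, 19.2, 21.4, 30.9 and 16.6 CPM at 9 months and 23.4, 17.1, 21.8, 19.4 and 17.2 CPM at 24 months. Replicates 1 and 4 of the 9 months group were level, and the log2 fold change was -0.27, or -0.16 without replicate 1. Ndufaf2, a chaperone related to Ndufa12, had 15.4, 9.27, 8.75, 9.10 and 9.05 CPM and 10.6, 7.46, 8.16, 9.28 and 9.76 CPM, so its other 4 libraries at 9 months lay within 8.75 to 9.27 CPM. It went from -0.19 to 0.00.

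Ndufaf3 and Ndufaf4 bind the ubiquinone module together during assembly. Ndufaf3 had 25.0, 14, 12.9, 13.7 and 13.9 CPM at 9 months and 19.0, 13.0, 13.0, 13.3 and 11.5 CPM at 24 months, with replicate 1 of each group apart from the rest. Ndufaf4 had 41.4, 27.3, 28.3, 36.0 and 28.1 CPM and 28.6, 26.4, 33.3, 27.0 and 34.1 CPM, the smallest excess of 9 months replicate 1 among the factors (1.38 times). Their log2 fold changes were -0.19 and -0.11, and 0.03 and 0.00 without it.

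Ndufaf5 hydroxylates an arginine of Ndufs7, and Ndufaf8 is its partner. Ndufaf5 had 31.8, 16.6, 21.8, 22.8 and 12.1 CPM at 9 months and 17.3, 10.1, 17.1, 17.4 and 18.9 CPM at 24 months. It had the lowest log2 fold change of the factors with all libraries (-0.38 ± 0.25, edgeR adjusted p = 0.568) and the lowest of all 45 members without 9 months replicate 1 (-0.18 ± 0.23, edgeR adjusted p = 0.755). Ndufaf8 had 28.3, 12.8, 12.8, 13.3 and 10.7 CPM and 12.7, 11.7, 11.3, 12.7 and 15.4 CPM, and went from -0.29 to 0.04. Without that library the SE of each partner (0.23 and 0.13) was larger than its distance from 0, so neither sign is settled. The difference between them was not tested.

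Ndufaf6, which resembles phytoene synthases, was the factor with the lowest CPM, 12.2, 5.75, 7.18, 9.02 and 5.57 CPM at 9 months and 7.67, 5.46, 6.49, 6.53 and 5.99 CPM at 24 months. Its log2 fold change was -0.30, or -0.10 without replicate 1. Ndufaf7 is an arginine methyltransferase that acts early in assembly. It had 35.7, 23.2, 21.5, 23.8 and 21.0 CPM and 32.5, 21.9, 20.3, 23.6 and 20.8 CPM, with replicate 1 high in both groups, and went from -0.07 to 0.09.

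Per kilobase of transcript, over the 9 libraries other than 9 months replicate 1, subunits ran from 5.04 to 360 CPM per kb (median 90.2) and assembly factors from 6.13 to 16.1 CPM per kb (median 13.3). Ndufa4 was the highest (360 CPM per kb), then Ndufb9 (321), Ndufa6 (196) and Ndufb10 (178). The lowest subunits were Ndufb2 (5.04 CPM per kb), Ndufb4 (6.06) and Ndufab1 (6.30), at the level of the assembly factors. For Ndufb2 and Ndufab1 the level hangs on the transcript taken: the annotated coding transcripts run from 455 to 4371 bases and from 452 to 3479 bases, and the longest was used. Ndufb4 and Ndufab1, with Ndufa12 (24.2 CPM per kb) and Ndufs5 (22.4), have processed pseudogenes of at least 99.4% identity over 319 to 469 bases. How reads from such copies were counted is not given, so the levels of these 4 genes are uncertain, and the part of the copies in them was not tested. Strand is not stated either, and Ndufaf2 shares 65.6% of its exon bases, Ndufb6 39.0% and Ndufa13 30.0% with a gene on the opposite strand. The values of those 3 genes may hold reads of their partners.

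The excess of 9 months replicate 1 went with transcript length over all genes. In 10 classes of length its median log2 level against the other 9 months libraries fell from 0.80 in the shortest (138 to 1213 bases) through 0.04 in the fifth to -0.65 in the longest (6402 bases and over). Of the 45 members, 29 were in the shortest class and 8 in the next. With replicate 1 left out of the reference, 9 months replicate 5 had medians from -0.14 in the shortest class to 0.18 in the longest, and replicates 2 to 4 stayed between -0.07 and 0.06. In the 24 months libraries, each against the other 4, the medians stayed between -0.19 and 0.15. Both ends belonged to 24 months replicate 1, which fell from 0.15 in the shortest class to -0.19 in the longest. That is the direction seen in 9 months replicate 1, and 24 months replicate 1 was next highest for the subunits (6.55 log2 CPM). Whether length goes with its subunit level was not tested.

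Subunits in the shortest class stood 1.85 to 2.65 times above the other 9 months libraries (median 2.32, 25 genes), and the 12 longer ones 1.13 to 2.4 times (median 1.84). Members nonetheless mostly lay above the median of their class. The shortest class spans 138 to 1213 bases, and each class takes in genes of any level. The comparison thus matches neither exact length nor level, and an excess beyond these was not tested. Of the 29 in the shortest class 28 lay above the class median, their own median being 1.21 on the log2 scale against 0.80, and 12.8% of the class lay above 1.21. All 8 in the second class, 4 in the third and the 4 longer members were above their class medians as well. The class hangs on the transcript taken. Ndufb2, Ndufab1 and Ndufaf4, placed among the longer members, also have coding transcripts of 455, 452 and 673 bases. Set against the shortest class's 0.80, Ndufb2 (1.06) would lie above, and Ndufab1 (0.58) and Ndufaf4 (0.48) below. The subunits lay a median of 0.45 above their class and the assembly factors 0.19. With each library's length trend taken out as an offset, an alternative added after seeing the data, the median log2 fold change (24 over 9 months) was -0.12 for subunits and -0.12 for factors. What in that library goes with length was not tested.

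**Figure D3:**
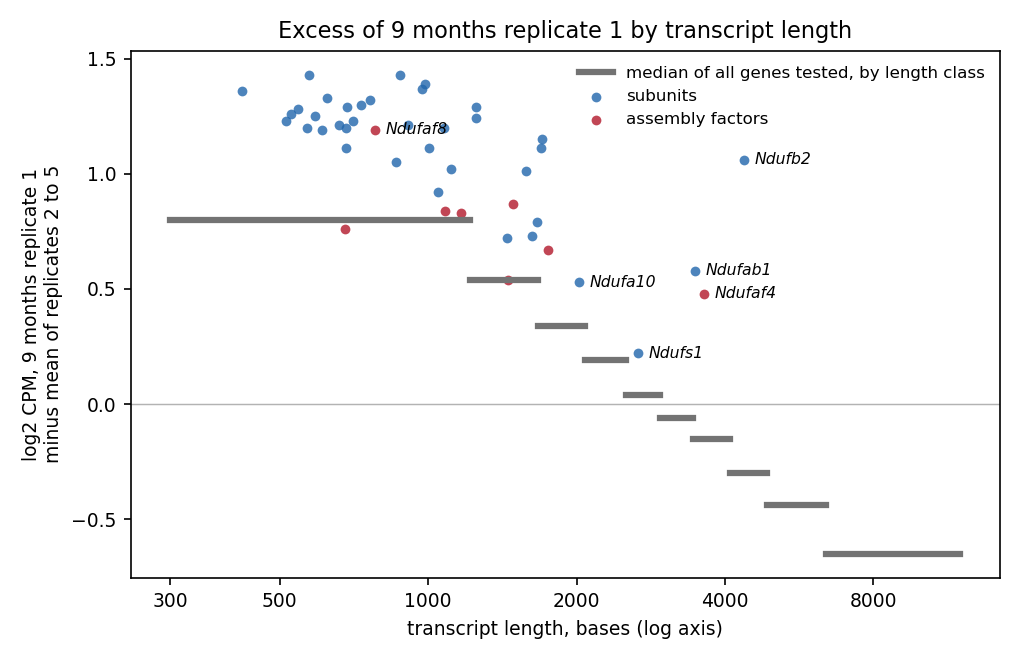
Points are members, blue for subunits and red for assembly factors. The x axis is the length in bases of the transcript taken for each gene (log axis). The y axis is the log2 CPM of 9 months replicate 1 minus the mean of 9 months replicates 2 to 5. Grey bars are medians of all genes tested in 10 length classes, the outermost of which extend past the axis; they fall from 0.80 to -0.65, and the members lie mostly above them.

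The rest of the pathway was read from lists that were chosen with earlier results known. The 5 tested mitochondrially encoded subunits, the pumping core of the membrane arm, stood at a median of -0.19 (log2 fold change), and at -0.09 without 9 months replicate 1. Mt-Nd2 had 6430, 3820, 5470, 5960 and 1960 CPM at 9 months and 3190, 2520, 4780, 3930 and 3610 CPM at 24 months, and mt-Nd4 5900, 3300, 4200, 5040 and 1880 CPM against 3750, 2320, 3860, 3330 and 3600 CPM. Here 9 months replicate 1 was above replicate 4 by less than in the nuclear subunits, while replicate 5 was again the lowest. In 4 of the 5 genes 9 months replicate 1 was the highest library; in mt-Nd5 it had 3080 CPM, below the 3410 to 5800 CPM of replicates 2 to 4.

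Assembly genes with other names, 10 of 11 tested, had a median of -0.07, and 7 of the 10 lay below 0. 9 months replicate 1 was the highest library for 5 of the 10, with log2 excesses from -1.26 to 1.14 (median 0.52), and their median distance from their length classes was -0.06, against 0.45 for the subunits. Acad9, which joins Ndufaf1 in building the membrane arm, was the gene of these lists with the smallest p: 83.0, 102, 87.6, 108 and 113 CPM at 9 months and 72.2, 80.1, 82.2, 90.4 and 75.2 CPM at 24 months. Its log2 fold change was -0.30 ± 0.12 (edgeR, unadjusted p = 0.0302, adjusted p = 0.312), and -0.36 without 9 months replicate 1, which was its lowest 9 months library. Timmdc1, a membrane-anchored assembly factor, had 26.2 ± 6.08 CPM at 9 months and 21.6 ± 2.08 CPM at 24 months (SD, n = 5 each) and a log2 fold change of -0.28, or -0.15 without that library. Neither gene passed the adjusted threshold.

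Genes of the other respiratory complexes followed the subunits in their medians, though not every gene did. Medians were -0.23 for complex II (8 genes), -0.27 for complex III (12), -0.19 for complex IV (10) and -0.29 for ATP synthase (15), and 0.03, 0.00, 0.10 and -0.04 without 9 months replicate 1. No gene of these lists passed the adjusted threshold. The only log2 fold changes above 0 were those of Sdha (0.02) and Atp5g2 (0.28). In 9 months replicate 1 Sdha (-0.06), Uqcrc2 (0.00) and Atp5g2 (0.13) were near the other 9 months libraries on the log2 scale. The smallest p in each list belonged to Sdhc, a membrane anchor of complex II, at -0.30, Uqcrc1, a core protein of complex III, at -0.37, Cox5a of complex IV at -0.46, and Atp5g1, a ring subunit of ATP synthase, at -0.51, all log2 fold changes. Next came the assembly factors Sdhaf3 (-0.30) and Uqcc2 (-0.33), Cox6b1 (-0.35) and Atp5d (-0.38). Without 9 months replicate 1 these 8 lay between -0.23 and 0.01. In 9 months replicate 1 the complex II genes lay a median of 0.53 (log2) above their length classes. The median was 0.40 for complex III, 0.33 for complex IV and 0.29 for ATP synthase. The complex I subunits had 0.45 and the mitochondrially encoded subunits 0, so the distance in 9 months replicate 1 was not particular to complex I.

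The 10 regulators of mitochondrial biogenesis were split in that library. Their median in 9 months replicate 1 was 0.25 below the other 9 months libraries on the log2 scale, where the subunits were 1.20 above. Their transcripts had a median length of 3705.5 bases, against 908 for the subunits. Their median distance from their length classes in that library was 0, against 0.45 for the subunits. Ppara, a nuclear receptor of fatty acid oxidation, had 1.20 CPM in 9 months replicate 1 and 6.56 to 14.4 CPM in the other 9 libraries. Tfb2m, a mitochondrial transcription factor, had 1.76 CPM there and 3.56 to 4.91 CPM elsewhere. Esrra, an estrogen-related receptor, had 110 CPM there and Tfam, which packages mitochondrial DNA, 60.9 CPM, and for these 2 genes it was the highest library. The median log2 fold change of the list was 0.01, with 5 genes above 0 and 5 below.

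Markers of other cell types moved with some libraries. Skeletal muscle markers (14 of 14 tested) summed to 58600 CPM in 9 months replicate 1, between replicates 4 (52300) and 3 (66700) of its group. By gene, that library was the highest of the 10 for 8 of the 14 markers, with a median log2 excess over the other 9 months libraries of 0.84 (range -1.15 to 1.82), where the subunits had 1.20. The markers summed to 23400 CPM in 9 months replicate 5, the lowest of the 10 libraries, where the subunits were also lowest. Brown fat markers (6 of 7 tested) summed to 353 CPM in 9 months replicate 1 and to 125 to 240 CPM elsewhere, but that library was highest for only 1 of the 6, and the median log2 excess was 0.03. 24 months replicate 1, next highest for the subunits, had the most white fat markers, 9540 CPM against 1300 to 2810 CPM, with a median log2 excess of 2.20 over the other 24 months libraries for the 8 markers. Its sebaceous markers summed to 28600 CPM against 1640 to 6440 CPM, though the median log2 excess over the 8 was 0.14. With the skeletal muscle markers as a covariate the subunits' median log2 fold change was -0.18, against -0.30 without it. That marker list includes Cox6a2 and Cox7a1, which are respiratory chain genes themselves. The part of these cell types in the complex I levels was not otherwise tested.

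**Figure D4:**
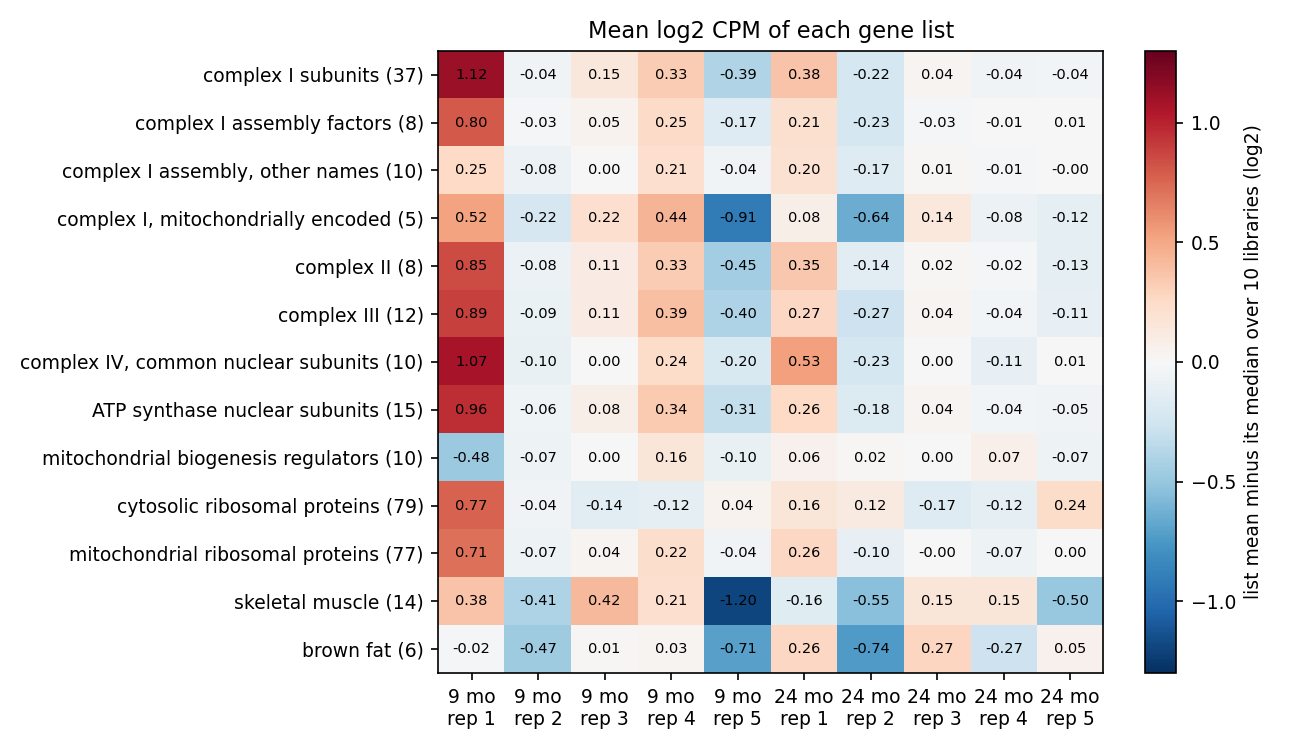
Each cell is the mean log2 CPM of a gene list (number of genes tested in brackets) in a library, minus the list's median over the 10 libraries. Nuclear respiratory chain and ribosomal protein lists are raised in 9 months replicate 1, the mean of the biogenesis regulators is lower there, and skeletal muscle markers are lowest in 9 months replicate 5.

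Markers of growing hair were high in 2 libraries of the younger group, and these went apart for complex I: the subunit mean was 6.5 in replicate 4 and 5.78 in replicate 5. With the growing hair markers as a covariate the median log2 fold change was -0.72 for subunits and -0.45 for assembly factors, and 30 subunits and 2 factors had an unadjusted p under 0.05 in edgeR, against 17.5% of all genes. With the same covariate and 9 months replicate 1 left out, an alternative added after seeing the data, the medians were -0.17 and -0.06. The number of members with an unadjusted p under 0.05 was then 0 of 45, against 5.44% of all genes. No member passed the adjusted threshold in edgeR in either fit.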

How the data were processed

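RNA of whole skin was sequenced as mRNA libraries, per the labels' protocols. The authors deposited raw counts per Ensembl gene for 10 libraries, and these counts were the only values used. The submitters' processing notes name CASAVA 1.7, STAR 2.4.1d, featureCounts 1.4.6-p4 and GRCm38, without roles. Not given in the sources used here: annotation release, strand setting, treatment of reads with several matches. The deposited RPKM table was not used, because its values are not in proportion to the libraries' totals.

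Gene symbols, exons and transcript lengths (principal transcript) came from GENCODE vM21, and promoters from RefSeq. Counts were tested with edgeR 4.0.16 in R 4.3.3 (filterByExpr, TMM scaling, robust quasi-likelihood F test), with p-values adjusted by Benjamini-Hochberg over the 17668 genes tested; log2 CPM used a prior count of 2. The fit was tested on simulated data first. Alternatives were DESeq2 1.42.0, limma 3.58.1 (voom, with and without quality weights), other scalings and filters, leaving out libraries, marker covariates and a length offset. Near-identical copies were found with blastn 2.17.0 (at least 90% identity over 200 bases). Intervals are the estimate plus or minus a normal multiple of the SE.

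The members and the lists were chosen with earlier results of these data known. Genes were named by rule: the 7 nuclear core subunits, the assembly factors, Ndufab1, Ndufa4, the 4 other subunits at each end of the log2 fold changes, the 3 smallest p, and the 2 smallest p of each pathway list; 1 member that the rule names is not reported here by itself, though it is in the counts and medians; other genes named for level, promoter or copies were chosen after their values were seen. The lists of ribosomal proteins were added after values were seen.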

Additional observations from a re-analysis of the deposited data

Results flagged for a closer look

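Within a group of 5, a library was singled out when its gap to the nearest other, divided by the group's range, passed Dixon's critical value of 0.710. Chance flags about 1 in 20 groups, a rate that cannot be set against the count here. Some members were named for their log2 fold changes, which 9 months replicate 1 moves, and the genes share libraries. In all, 12 of 68 groups were singled out, over 25 named members and 9 gene lists. Of these, 7 were 9 months replicate 1, each the highest of its group: Ndufa11 at 169 CPM, Ndufs6 at 117 CPM, Ndufb2 at 47.8 CPM, Ndufaf7 at 35.7 CPM, Ndufaf8 at 28.3 CPM, Ndufaf3 at 25.0 CPM and Ndufaf2 at 15.4 CPM. Over all 45 members, 16 had that library singled out in this way. The share of all genes with that flag was not computed, so the count is not read as particular to the members. 24 months replicate 1 stood apart as the highest of its group for Ndufb9 at 337 CPM, Ndufv3 at 127 CPM, Ndufaf7 at 32.5 CPM and Ndufaf3 at 19.0 CPM. The remaining case was Ndufaf5, with 10.1 CPM in 24 months replicate 2, the lowest of its group. Ndufaf3 and Ndufaf7 had replicate 1 apart in both groups.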

How the results depend on the processing

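In 23 alternatives, 0 of 45 members passed an adjusted p of 0.05; over all genes 0 to 8 passed, except 907 with DESeq2. The subunits' median log2 fold change was -0.30 with all libraries, -0.31 with DESeq2, -0.21 with limma-voom, -0.14 with quality weights, -0.18 with a skeletal muscle covariate and -0.43 to 0.01 when each library was left out in turn. The lowest of these was without 9 months replicate 5, and the highest without 9 months replicate 1. Without both growing-hair libraries it was -0.48. The assembly factors' range over left-out libraries was -0.31 to 0.00. With the growing hair covariate the median of the other respiratory chain lists moved from -0.20 to -0.51; the cause was not tested.

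The sign turned in at least 1 alternative for 23 of the 45 members, 12 of them among the named genes, which follow on the log2 scale. Over left-out libraries the ranges were -0.49 to 0.06 for Ndufs7, -0.40 to 0.03 for Ndufv2, -0.32 to 0.03 for Ndufaf3, -0.40 to 0.04 for Ndufaf8, -0.21 to 0.09 for Ndufaf7, -0.13 to 0.07 for Ndufab1, -0.38 to 0.08 for Ndufa4, -0.38 to 0.11 for Ndufb9, -0.35 to 0.06 for Ndufv3, -0.24 to 0.25 for Ndufa6 and -0.21 to 0.04 for Ndufa10. The value above 0 came without 9 months replicate 1, and for Ndufa10 also (0.03) without 24 months replicate 5. Ndufa6 was 0.01 with limma-voom, 0.06 with quality weights, 0.04 with the muscle covariate and 0.11 with the length offset; Ndufab1 was 0.03 with quality weights. With the hair covariate and no 9 months replicate 1, Ndufaf4 was 0.13, Ndufab1 0.08, Ndufaf3 0.04, Ndufaf7 0.04 and Ndufa6 0.03. No paired analysis was possible because the labels give no shared replicate numbers.

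The lowest count of a member in a library was 173. With 5 libraries a group the SE of a member's log2 fold change had a median of 0.26, or 0.18 without 9 months replicate 1. What limited the calls was not tested. A change common to all members but smaller than the spread between libraries could not be told from none.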

Other observations

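24 months replicate 5 was the lowest library for Ndufs1 (124 CPM), Ndufv1 (133 CPM), Ndufa9 (81.7 CPM) and Ndufa10 (111 CPM), and for Ndufaf3, while the subunit mean of that library (6.14 log2 CPM) lay in the middle of its group. Sdha (285 CPM), Atp5a1 (808 CPM), Atp5b (1100 CPM) and Uqcrc1 (78.2 CPM) were lowest there too. The 4 complex I subunits named here have transcripts of 1445 to 2661 bases. These genes were picked after their values were seen.

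Ndufa4l2, a paralog of Ndufa4 that the naming rule leaves out and that is known as a target of hypoxia signalling, followed the members in part. It had 423, 244, 187, 170 and 85.3 CPM at 9 months and 80.9, 293, 164, 240 and 203 CPM at 24 months. As for the members, 9 months replicate 1 was its highest library and replicate 5 the lowest of that group, and its log2 fold change went from -0.18 to 0.19 without replicate 1. Unlike them, it was lowest of all in 24 months replicate 1, which was high for the subunits.

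Cytosolic ribosomal protein genes (79 tested) were also raised in 9 months replicate 1, by a median of 0.89 on the log2 scale, and mitochondrial ribosomal protein genes (77 tested) by 0.73, against 1.20 for the complex I subunits. That library was the highest of the 10 for 69 and 68 of them. Their median log2 fold changes were -0.08 and -0.18, and 0.14 and -0.03 without it.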
